A study of Mus musculus with 21 samples.

Results

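The step from 2 h to 4 h of BMH-21 was read from 6 of the 21 libraries of the series, the 3 libraries of mouse embryonic stem cells (ESCs) taken after 2 h and the 3 taken after 4 h in 1 µM of the inhibitor. The genes were chosen by level alone: 14666 of the 20900 gene symbols had a log2 value above 0 in at least 3 of the 21 libraries and were compared, and 6234 were set aside. The cells were E14 ESCs of a 129 strain, a single line with no allele or transgene named in the labels, grown in serum with leukaemia inhibitory factor. They were plated the day before and received fresh medium with the inhibitor, and the poly(A) RNA was made into directional libraries. The other groups of 3 were untreated cells at 0 h, BMH-21 at 8 h and CX-5461, another inhibitor of RNA polymerase I, at 1 µM for 2, 4 and 8 h. No group of cells kept for 2 or 4 h without inhibitor is described, so time in fresh medium and time in the inhibitor cannot be told apart. The labels do not say whether the replicates were separate cultures, so the p-values measure the spread between these libraries, which may be technical.

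RNA polymerase I transcribes the ribosomal RNA genes in the nucleolus, and ribosome assembly consumes a large part of a dividing cell's transcription. BMH-21 is a planar DNA-intercalating compound known to block this polymerase and to cause loss of its largest subunit, whereas CX-5461 is known to block its initiation. When ribosome assembly stalls, free ribosomal proteins bind Mdm2, the ligase that marks p53 for degradation, and p53 then activates genes of growth arrest and apoptosis. Mouse ESCs are held in a naive state by Pou5f1, Sox2, Nanog and their partners, and pass through a formative state marked by factors such as Otx2, Fgf5, Zic2 and Foxd3 when they leave it.

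The 6 libraries held 48214123 to 56635321 reads each, and 1 unit of the level used here is 1 doubling relative to the median tested gene of the library (a centred log2 value). In a principal component analysis of the 6 libraries the component holding 90.6% of the variance put the 2 h libraries between -47.3 and -46.7 and the 4 h libraries between 46.4 and 47.6. The ESC markers that define the line were present at both times: Pou5f1, the central pluripotency factor, had 68329 to 79331 reads per library at 2 h and 69250 to 77329 at 4 h. Of the 10 ESC markers tested 8 were lower at 4 h and 0 higher by the limma test described next (0 higher also at an unadjusted p under 0.05 and with voom weights). Beside these and the marker counts below, 39.3% of all genes tested were lower and 29% higher by the same test. Their summed level, on the linear scale of the deposited values, was 5402 to 5995 at 2 h and 3719 to 4335 at 4 h. Markers of other cell types had lower summed levels: 8 of 12 trophectoderm, 11 of 12 primitive endoderm, 5 of 8 mesoderm and 6 of 12 fibroblast markers could be tested, with 4, 5, 1 and 3 of them higher and 4, 2, 1 and 1 lower. The summed levels at 2 h and 4 h were 74.1 to 88.1 and 74.6 to 89.4 for trophectoderm, 290 to 346 and 315 to 375 for primitive endoderm, 5.28 to 6.34 and 5.52 to 8.03 for mesoderm, and 54.3 to 65.5 and 84.9 to 97.5 for fibroblast. The fibroblast sum moved with the comparison, through Col1a1 (412 to 635 reads at 2 h and 1568 to 1739 at 4 h) and Fbln2 (210 to 224 and 1125 to 1185), whose part in the other results was not tested. Of the other 10 fibroblast markers, Thy1 had 920 to 1033 reads at 2 h and 721 to 767 at 4 h, Acta2 had 773 to 1021 and 763 to 997, and Pdgfrb had 110 to 145 and 152 to 185. Col1a2 had 58 to 76 and 67 to 81, Dcn 12 to 19 and 3 to 13, and Col3a1 6 to 9 and 7 to 10. S100a4, Twist2, Postn and Lum had at most 7 reads in any of these libraries. Members of the other lists moved as well, in the numbers each way given above. Krt7 (trophectoderm) had 116 to 154 reads at 2 h and 725 to 814 at 4 h, and Mesp1 (mesoderm) 10 to 18 and 95 to 141. Tead4 (trophectoderm) went down, from 412 to 431 reads at 2 h to 134 to 221 at 4 h. In bulk RNA, fewer cells of a type and less RNA per cell cannot be told apart.

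Between 2 h and 4 h, 10008 of the 14666 genes changed (68.2%), 4248 of them higher at 4 h (29%) and 5760 lower (39.3%), by limma on centred values with an adjusted p under 0.05. Without centring, on the values as deposited, 8147 changed (55.6%), 3044 higher (20.8%) and 5103 lower (34.8%). Both scalings called 8095 of these genes in the same direction and 0 in opposite directions. The 3 values at 4 h lay wholly above or below the 3 at 2 h for 10320 genes (70.4%), 4398 above (30%) and 5922 below (40.4%). At least 2-fold changes were mostly rises, with 1449 genes higher (9.88%) and 365 lower (2.49%). As deposited these were 1334 (9.1%) and 463 (3.16%). The median gene moved by -0.06 on the log2 scale, or by -0.13 as deposited, and the middle 90% of genes lay between -0.79 and 1.65. Centring on the median of all 20900 symbols moved the median tested gene to -0.23 and the split to 3076 higher and 8337 lower, so the balance of small rises and falls rests on the scaling.

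The 1449 genes that rose at least 2-fold started low. Their median level was -4.33 at 0 h, -3.82 at 2 h, -1.94 at 4 h and -1.13 at 8 h, where the median tested gene lies at 0. For 549 of them no 2 h library had a deposited log2 value above 0, which corresponds to 44.2 to 56.7 reads. Such genes could enter the comparison only through groups in which they were higher, so their share is fixed in part by the filter. The 365 genes that fell at least 2-fold had median levels of -1.24 at 0 h, -1.46 at 2 h, -2.90 at 4 h and -2.96 at 8 h. Of these 365 genes, 17 had no 2 h library above 0.

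The start regions of 4 genes described below are shown, chosen as a keratin gene, 2 p53 targets that rose and the gene with the largest fall. Each sequence is the 250 bases before the annotated start in the RefSeq table for GRCm38.p6, 5′ to 3′ on the gene's strand. They are Krt5 at chr15:101712906-101713155 (minus strand), Fas at chr19:34290409-34290658 (plus), Mdm2 at chr10:117710759-117711008 (minus) and Foxd3 at chr4:99656049-99656298 (plus). None of the 4 stretches overlapped an annotated exon. Capitals mark matches on either strand to TGANTCA (the AP-1 element), CACGTG (an E-box, bound by MYC and MAX among others), CCGGAA (an ETS element) or CCAAT.
Krt5: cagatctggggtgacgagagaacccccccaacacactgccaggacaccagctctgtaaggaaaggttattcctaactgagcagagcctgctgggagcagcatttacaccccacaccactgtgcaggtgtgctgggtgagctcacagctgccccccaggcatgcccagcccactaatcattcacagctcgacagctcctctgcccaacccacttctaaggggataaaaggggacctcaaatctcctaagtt
Fas: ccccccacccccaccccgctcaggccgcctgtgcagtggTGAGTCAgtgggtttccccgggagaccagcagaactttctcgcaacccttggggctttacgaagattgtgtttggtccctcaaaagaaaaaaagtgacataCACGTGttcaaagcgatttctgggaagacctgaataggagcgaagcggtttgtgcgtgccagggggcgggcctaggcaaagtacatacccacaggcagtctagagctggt
Mdm2: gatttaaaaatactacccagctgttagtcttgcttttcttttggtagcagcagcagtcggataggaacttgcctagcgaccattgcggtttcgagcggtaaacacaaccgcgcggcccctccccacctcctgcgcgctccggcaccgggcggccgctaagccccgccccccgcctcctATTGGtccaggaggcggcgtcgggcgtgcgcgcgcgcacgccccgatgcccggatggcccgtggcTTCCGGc
Foxd3: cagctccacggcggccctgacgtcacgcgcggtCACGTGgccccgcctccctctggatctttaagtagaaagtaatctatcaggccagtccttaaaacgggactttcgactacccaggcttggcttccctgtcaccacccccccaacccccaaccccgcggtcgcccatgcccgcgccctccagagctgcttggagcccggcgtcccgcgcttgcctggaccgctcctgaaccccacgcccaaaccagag
Krt5, with a mean level of -6.32 at 0 h, has 2 CG pairs in these 250 bases and no match to the 4 motifs. The Fas stretch has 11 CG pairs, that of Foxd3 21 and that of Mdm2 29. Over windows that also include the 50 bases after the start, 1066 of the 1449 genes that rose at least 2-fold could be matched, with 1383 windows. Their median was 11 CG pairs, against 14 for the genes that fell at least 2-fold (340 windows) and 19 for all tested genes (14009 windows). CCGGAA stood in 10.9% of the windows of the genes that rose at least 2-fold, in 10.6% of those that fell at least 2-fold, in 24.8% of all tested genes' windows and in 14.9% of all 32851 windows in the table. TGANTCA stood in 7.66%, 5.59%, 5.19% and 7.81% in the same order, and CACGTG in 6.07%, 8.53%, 9.52% and 7.15%. These genes also differ from all tested genes in level, as given above, and the shares are a description with no test.

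The largest rises were in genes with few reads before. Rgs14, a regulator of G-protein signalling, had centred levels of -2.72, -2.71 and -2.79 in the 2 h libraries and 1.84, 1.81 and 1.94 in the 4 h libraries. All 4 h values lay more than 4 units above all 2 h values, and the change was 4.60 ± 0.07 (log2 ± SE, limma adjusted p 7.6e-23), a 24.2-fold rise from 135 to 164 reads per library to 3684 to 3963. Krt5, a keratin of basal epithelial cells, had levels of -3.50, -3.45 and -3.44 at 2 h and 0.91, 0.90 and 0.89 at 4 h. Its change was 4.36 ± 0.17 (limma adjusted p 1.8e-16). Slco2b1, an organic anion transporter, rose by 4.63 ± 0.19 (limma adjusted p 5.6e-16) from 9, 22 and 18 reads to 439, 405 and 420. The rest of the 10 largest rises, between 3.96 and 4.30, were Eva1c, the phosphatase gene Dusp13, Marc1, Astl (an oocyte protease), Apol8 (an apolipoprotein L), Ciita (the activator of class II histocompatibility genes) and 5330417C22Rik. Their levels at 4 h differed widely, from -2.02 for Marc1 to 0.63 for Apol8. For Slco2b1, Eva1c, Dusp13, Marc1, Astl and Ciita no BMH-21 2 h library had a deposited log2 value above 0. These genes could enter the comparison only through groups in which they were higher, so their p-values are not free of the filter. All 3 libraries at 8 h lay above the 3 at 4 h for each of the 10 genes.

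The 10 largest falls included several genes of developmental factors. Foxd3, a forkhead factor of the formative state, had levels of 0.00, -0.15 and 0.03 at 2 h and -2.89, -2.96 and -2.84 at 4 h. The groups did not overlap, and the change of -2.86 ± 0.09 (limma adjusted p 7.1e-18) took it from 900, 966 and 956 reads to 139, 135 and 144, a 7.25-fold difference. Bmp4, a secreted ligand of the BMP pathway, had levels of -0.23, -0.31 and -0.16 at 2 h and -2.97, -3.47 and -2.83 at 4 h. It changed by -2.85 ± 0.10 (limma adjusted p 5.8e-17). Zic5 and Zic2, zinc-finger factors, changed by -2.74 ± 0.08 and -2.58 ± 0.07. They are neighbours on GRCm38 chromosome 14, at 122456795 to 122465677 (minus strand) and 122475435 to 122479852 (plus strand). Between them lies 2610035F20Rik (122470284 to 122475199, minus strand), which changed by -2.52 ± 0.16, so 3 of the 10 largest falls came from one stretch of chromosome 14. Whether reads were counted by strand is not given in the sources used here, so reads of close or overlapping genes may not be fully separated. The other 5 were Mir124a-1hg, a host gene of a microRNA (-2.85), the ETS factor Spic (-2.82), Msc (-2.75), Nfib (-2.63) and Pax6 (-2.58). At 8 h, all 3 libraries lay above those at 4 h for Foxd3, Bmp4, Mir124a-1hg, Spic, Zic5, Zic2 and 2610035F20Rik, below them for Msc and Nfib, and among them for Pax6. All 10 remained below their 0 h libraries at 8 h.

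**Figure D1:**
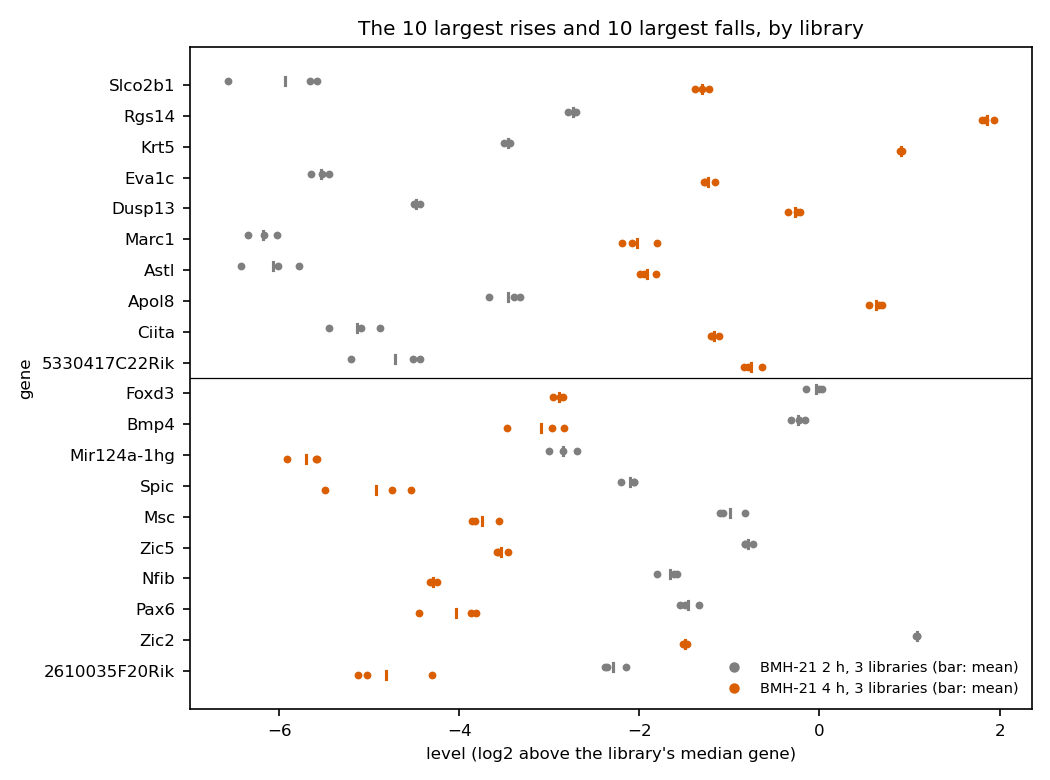
Level of the 20 genes with the largest changes in each BMH-21 library at 2 h (grey) and 4 h (orange), as log2 above the median tested gene of the library, with short bars for the means. The 10 rises stand above the line and the 10 falls below it, and no gene's 2 h and 4 h points overlap, as the rule for naming them required.

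Most listed genes of the p53 pathway rose. Of 7 regulators of p53 tested, 5 rose (71.4%) and 1 fell (14.3%), where 29% of all genes tested rose and 39.3% fell. Mdm2, the ubiquitin ligase of p53, had levels of 4.91, 4.95 and 4.92 at 2 h and 5.82, 5.79 and 5.75 at 4 h. It rose by 0.86 ± 0.03 (limma adjusted p 3.6e-16), 1.82-fold, and the groups did not overlap. Ccng1 (cyclin G1) rose by 0.67 ± 0.03 and Pidd1, a death-domain scaffold, by 0.60 ± 0.05. The transcript of p53 itself, Trp53, had levels of 5.15, 5.19 and 5.17 at 2 h and 4.98, 4.98 and 4.98 at 4 h. It fell by 0.19 on the log2 scale (limma adjusted p 7.6e-06), a call that was lost under quantile normalization at -0.07.

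Among 17 targets tied to growth arrest, 13 rose (76.5%, against 29% of all genes) and 4 fell (23.5%, against 39.3%), with a median change of 0.58. Cdkn1a, which encodes the cell cycle inhibitor p21, had levels of 3.54, 3.52 and 3.52 at 2 h and 3.63, 3.60 and 3.66 at 4 h, against a mean of 0.78 at 0 h. The 2 h and 4 h groups did not overlap, but the change was only 0.10 ± 0.04 (limma adjusted p 0.036), and it was 0.03 as deposited (0.84) and -0.070 when centred on the median of all genes. The call was also lost in 5 of 6 fits that left out 1 of the 2 h or 4 h libraries, all but that without replicate 2 at 4 h. The rise of the same list came from other members: the phosphatase genes Ptprv (2.07 ± 0.05) and Ptp4a3 (1.41 ± 0.04), the noncoding Pvt1 (1.26 ± 0.06), and the antiproliferative Btg2 (0.67 ± 0.04). Plk3 and Gadd45b, kinase and stress genes of the list, fell by 0.99 and 0.81 on the log2 scale.

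Of 16 apoptosis targets 12 rose (75%, against 29% of all genes), 11 of them as deposited, and 0 fell (0 also at an unadjusted p under 0.05 and with voom weights, and 3 when centred on the median of all genes). Fas, the death receptor, had levels of -3.83, -3.67 and -3.79 at 2 h and -0.50, -0.45 and -0.45 at 4 h. It rose 9.83-fold, by 3.30 ± 0.19 (limma adjusted p 2.4e-13). Apaf1, the apoptosome core, rose by 2.13 ± 0.05, Perp, a membrane protein of apoptosis, by 1.67 ± 0.05, and Pmaip1 (Noxa) by 1.38 ± 0.06. Bax and Bbc3 (Puma), which act at the mitochondrion, had changes of 0.07 ± 0.06 and -0.05 ± 0.07 that did not pass the test (limma adjusted p 0.33 and 0.56). Of 17 targets in metabolism and repair 9 rose (52.9%) and 4 fell (23.5%), or 6 and 4 as deposited. The repair nuclease gene Ercc5 rose by 1.16 ± 0.03 and the carnitine palmitoyltransferase gene Cpt1c by 0.86 ± 0.05, while Tigar, a regulator of glycolysis, fell by 0.87 on the log2 scale. The 4 p53 lists had median changes of 0.41, 0.58, 0.55 and 0.22, beside -0.06 for all genes tested.

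Pluripotency genes went down unevenly. Of 23 tested, 18 fell (78.3%, against 39.3% of all genes), 7 of them at least 2-fold (30.4%, against 2.49%). The 2 that rose (8.7%, against 29%) were Klf5 (0.20 ± 0.07) and Socs3 (0.15 ± 0.05), with neither called as deposited. Prdm14, a repressor of differentiation, had levels of -0.83, -0.73 and -0.87 at 2 h and -2.98, -2.72 and -2.74 at 4 h, a change of -2.00 ± 0.10 (limma adjusted p 3.4e-14). Nanog had levels of 4.07, 3.97 and 4.00 at 2 h and 2.84, 2.95 and 3.03 at 4 h. It changed by -1.07 ± 0.05 (limma adjusted p 9.9e-15), a 2.11-fold fall. Sox2 had levels of 4.09, 3.96 and 4.04 and then 3.56, 3.57 and 3.62. Its change was -0.45 ± 0.05 (limma adjusted p 1.2e-08). The Pou5f1 levels overlapped, with 6.28, 6.21 and 6.19 at 2 h and 6.07, 6.11 and 6.22 at 4 h, and its change of -0.09 ± 0.05 did not pass the test (limma adjusted p 0.085). It passed at -0.26 when centred on the median of all genes, at -0.14 without replicate 3 of the 4 h group and at -0.18 with the GC trend removed. The nuclear receptor genes Nr5a2 and Esrrb fell by 1.64 and 1.09 on the log2 scale, the dioxygenase gene Tet2 by 1.45 and Zfp42 (Rex1) by 1.38.

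Of the 16 formative and primed factors 15 fell (93.8%, against 39.3% of all genes) and 0 rose (0 also at an unadjusted p under 0.05 and with voom weights), with a median change of -0.79 against -0.43 for the pluripotency list, a difference that was not tested. Besides Foxd3, Zic5 and Zic2, the list held Fgf5, a growth factor of the primed state. Its levels were -4.19, -4.50 and -4.43 at 2 h and -6.15, -5.84 and -6.26 at 4 h. It changed by -1.71 ± 0.20 (limma adjusted p 9.8e-08), from 43 to 49 reads per library to 13 to 18, and with values below 0 set to 0 its change was 0.052. The WNT effector Lef1 and the homeobox factor Otx2 fell by 1.66 and 1.41. Pou3f1 was the only member not called (-0.17 ± 0.08, limma adjusted p 0.059). Of 13 neural and Hes factors that could be tested (20 were listed), 7 fell (53.8%) and 3 rose (23.1%). Pax6, a regulator of eye and brain development, had 307, 423 and 333 reads at 2 h and 73, 72 and 47 at 4 h. Fgf15, a ligand, changed by -1.94 ± 0.12 and the repressor Hes3 by -1.41 ± 0.26, while the Notch effector Hey2 rose by 1.37 ± 0.16.

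FGF signalling acts through the ERK kinases in ESCs and switches on its own feedback inhibitors. Of 21 FGF and ERK output genes 17 fell (81%, against 39.3% of all genes) and 3 rose (14.3%, against 29%), with a median of -0.78. Of the ligands, Fgf4 fell by 0.89 and Fgf17 by 1.32. Of the feedback inhibitors, Spry4 fell by 1.11 and the ERK phosphatase gene Dusp4 by 1.37. The receptor gene Fgfr4 went the other way, with levels of -1.70, -1.70 and -1.57 at 2 h and 0.44, 0.44 and 0.58 at 4 h, a rise of 2.15 ± 0.08 (limma adjusted p 3.3e-17). The remaining receptors differed: Fgfr1 rose by 0.50, Fgfr2 fell by 1.09 and Fgfr3 was not called at 0.21.

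Of 33 BMP, Nodal and WNT genes 7 were higher (21.2%) and 16 lower (48.5%), near the 29% and 39.3% of all genes tested, and the median change was -0.01. Wnt3 rose by 2.35 ± 0.10 and Bmp7 by 2.23 ± 0.07, and all their 4 h values lay above those at 2 h, while Bmp4 fell as given above. The WNT target gene Axin2 fell by 1.75, whereas Nkd1, another feedback inhibitor of the pathway, rose by 1.37. Id3, a BMP target, fell by 0.99, and Nodal had a change of 0.07 ± 0.04 that did not pass the test (limma adjusted p 0.13).

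Immediate early genes also divided. Of 30 tested, 17 rose (56.7%, against 29% of all genes) and 8 fell (26.7%, against 39.3%), or 12 and 9 as deposited. Atf3, a stress-induced factor, had levels of -2.53, -2.53 and -2.49 at 2 h and -0.34, -0.40 and -0.33 at 4 h, a rise of 2.16 ± 0.10 (limma adjusted p 2.2e-15). Dusp2, a phosphatase of ERK and p38, rose by 2.12 ± 0.10 and Fosl1, an AP-1 subunit, by 1.96 ± 0.21. On the plus strand of chromosome 2, Dusp2 ends at 127338376 and Astl, named above, starts at 127338639. Reads of these neighbours may not be fully separated. Jun and Fos rose by 1.04 and 0.85, and Egr1 by 0.16, which was 0.08 as deposited (limma adjusted p 0.54). At 8 h all 3 libraries lay below those at 4 h for Dusp2 and Fosl1, and above them for Atf3. Keratin genes had the highest median change of the 22 lists, at 0.95. Of 17 tested, 10 rose (58.8%) and 5 fell (29.4%), and 8 rose at least 2-fold (47.1%, against 9.88% of all genes). The list held 25 keratins, all in the deposited values, and the rest were set aside by the filter on level. Keratins low at 2 h could enter only through groups in which they were higher, so the median and shares are fixed in part by the filter. Krt15 had levels of -3.54, -3.05 and -2.83 at 2 h and 0.27, 0.29 and 0.30 at 4 h, a rise of 3.43 ± 0.21 (limma adjusted p 8.5e-13). Krt6a rose by 3.10 ± 0.42 from only 4 to 10 reads per library to 65 to 70, and keratins of similar sequence such as Krt6a and Krt6b can share reads. With so few reads at 2 h, Krt6a could enter the comparison only through groups in which it was higher. The simple epithelial keratins Krt8 and Krt18 fell by 0.18 and 0.45.

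Of 22 genes of the 2-cell embryo that could be tested (32 were listed and 27 were in the table), 7 rose (31.8%, near the 29% of all genes tested) and 0 fell by limma (8 rose and 0 fell at an unadjusted p under 0.05, and 6 and 0 with voom weights). Dux, the factor that switches on this programme, had 22, 12 and 22 reads at 2 h and 150, 148 and 138 at 4 h. Its 2 h reads lay below the 44.2 to 56.7 that stand for a log2 value of 0. Dux could therefore enter the comparison only through groups in which it was higher. Its rise was 2.87 ± 0.32 (limma adjusted p 2.6e-08), and all 3 libraries at 8 h lay above those at 4 h. Of the Zscan4 genes, which are targets of Dux, Zscan4f rose by 0.43 ± 0.10. Zscan4c had levels of -2.00, -1.94 and -1.69 at 2 h and -1.65, -1.71 and -1.67 at 4 h, so that the groups overlapped, and its change was 0.20 ± 0.12 (limma adjusted p 0.14), which passed the test at 0.30 with the GC trend removed. Zscan4d had a change of 0.17 ± 0.12 (limma adjusted p 0.23) that passed the test at 0.31 without replicate 3 of the 2 h group and was -0.0030 when centred on the median of all genes. The mean levels at 8 h were 0.31 for Zscan4c and -0.32 for Zscan4d, so in those libraries both lay above their 4 h means of -1.68 and -2.18. Dux and Zscan4 genes are repeated in the genome in near-identical copies, and reads may have been split among them.

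Cyp1a1, a detoxifying enzyme induced through the aryl hydrocarbon receptor, came down from a peak. Its mean level was -4.57 at 0 h. In the 2 h libraries it was 3.04, 2.98 and 3.00 and in the 4 h libraries 1.79, 1.77 and 1.76. The fall between them was -1.23 ± 0.16 (limma adjusted p 2.7e-07). Cyp1b1 changed by -1.04 ± 0.13 and Ahrr, the repressor of the receptor, by -1.27 ± 0.15, both from 2 h means well above 0 h (0.99 against -4.78 and -1.50 against -5.04). Of 11 genes of the pathway tested 6 fell (54.5%) and 4 rose (36.4%), beside 39.3% and 29% of all genes, the latter including Nqo1 (0.45 ± 0.05) and Aldh3a1 (0.66 ± 0.06), and the receptor gene Ahr was not called at 0.14.

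**Figure D2:**
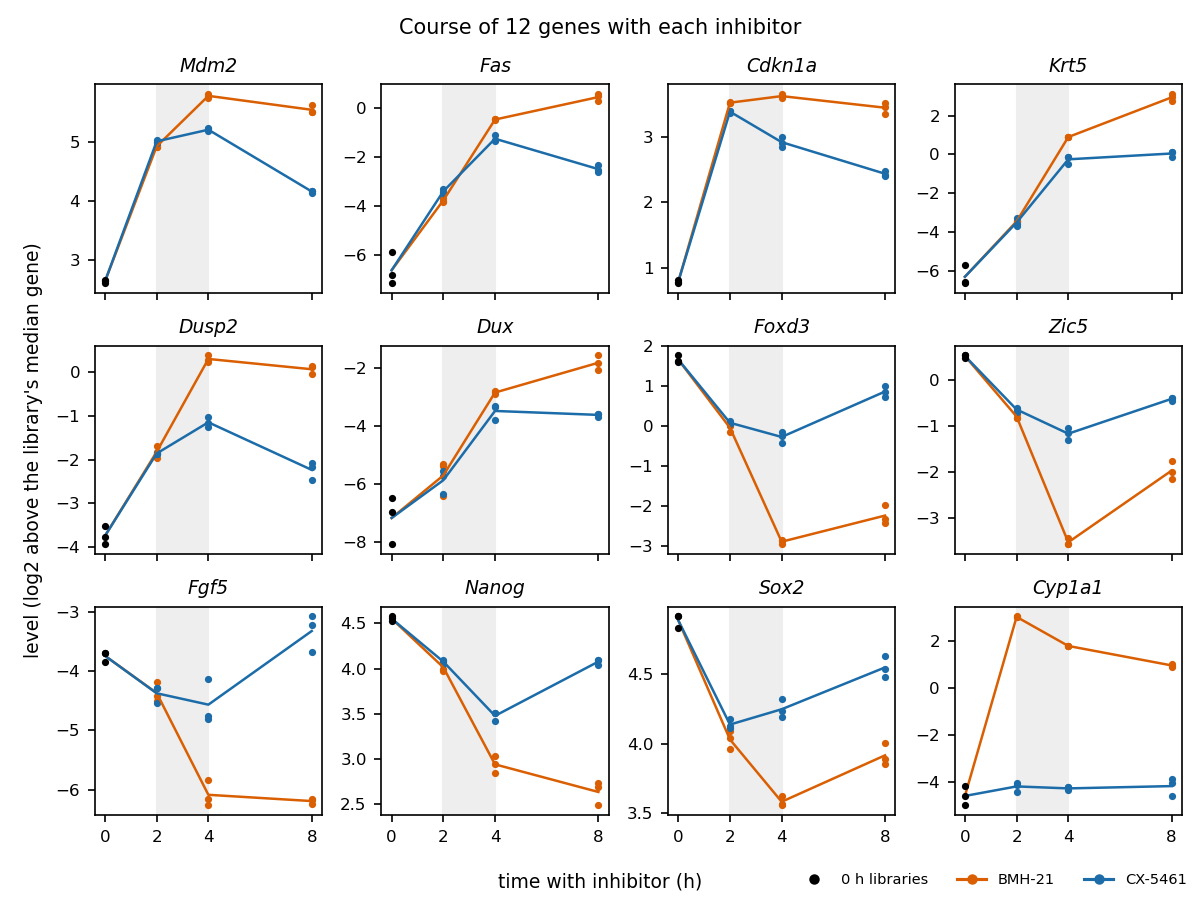
Level of 12 genes (log2 above the median tested gene of the library) at 0, 2, 4 and 8 h with BMH-21 (orange) and CX-5461 (blue), with a point for each library, lines through the means and the 2 h to 4 h interval shaded. With BMH-21 the 4 h points of Foxd3, Zic5 and Fgf5 lie far below those at 2 h, those of Fas, Krt5, Dusp2 and Dux far above, and Cdkn1a moves by 0.10.

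Genes that make ribosomes mostly fell. Of 21 genes of the RNA polymerase I machinery 14 fell (66.7%, against 39.3% of all genes) and 3 rose (14.3%, against 29%), the latter being Ttf1, Polr1e and Polr1a, and only Ttf1 was also called as deposited. Ubtf, the factor that binds active ribosomal RNA genes, had levels of 4.18, 4.16 and 4.18 at 2 h and 3.15, 3.38 and 3.25 at 4 h, a change of -0.92 ± 0.05 (limma adjusted p 1.0e-13). Polr1a, which encodes the polymerase's largest subunit, had a change of 0.22 ± 0.05 (0.15 as deposited, limma adjusted p 0.22). Of 86 ribosome assembly factors 70 fell (81.4%) and 4 rose (4.65%), with a median of -0.28. The steepest falls were those of Nop2, a methyltransferase of ribosomal RNA (-0.80 ± 0.04), Ppan, a factor of large subunit assembly (-0.78 ± 0.06), and Gnl3, the nucleolar protein nucleostemin (-0.77 ± 0.04). The cytosolic ribosomal protein genes did not move with them: of 80, 1 fell (Rpl3, -0.13 ± 0.04) and 0 rose by limma, and at an unadjusted p under 0.05 2 fell and 0 rose. With voom weights the counts were the same 1 and 0. They depended on scaling, with 64 lower when centred on the median of all genes and 20 higher under quantile normalization. The Rpl3 call was lost as deposited and without replicate 1 of either group. Precursor ribosomal RNA (Rn45s) had 229357 to 264584 reads at 2 h and 152476 to 390267 at 4 h, so the ranges overlapped, and poly(A) selection makes this count a poor measure of that RNA.

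Most of the listed cell cycle genes fell. Of 51 G2 and mitosis genes 33 fell (64.7%, against 39.3% of all genes) and 7 rose (13.7%, against 29%), or 29 and 2 as deposited, with a median of -0.19. The mitotic kinase gene Plk1 fell by 0.74 and Cks2, which binds cyclin-dependent kinases, by 0.65, while Ckap2, a spindle protein also on a p53 list, rose by 0.79 ± 0.03. Of 54 DNA replication genes 42 fell (77.8%) and 2 rose (3.7%), with a median of -0.21. The E2F factor genes E2f2, E2f8 and E2f3 fell most, by 1.22, 0.91 and 0.84. Of 13 genes of the MYC and MAX network 9 fell (69.2%) and 3 rose (23.1%). Mnt, a repressor that pairs with MAX, had 3828, 4735 and 4010 reads at 2 h and 1819, 1841 and 1823 at 4 h and changed by -1.30 ± 0.05 (limma adjusted p 1.8e-16). Myc itself fell by 0.23 and Mycn by 0.42, while Mlxipl, Mxd4 and Mxd1 rose.

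Of 28 genes of the ATF4 and endoplasmic reticulum stress responses 17 fell (60.7%, against 39.3% of all genes) and 6 rose (21.4%, against 29%). Xbp1, a factor of the unfolded protein response, fell by 0.90, Ppp1r15a, which restores translation after stress, by 0.85, and Atf4 by 0.63, while Ddit3 (Chop) rose by 0.49 and the kinase-like gene Trib3 by 0.57. Of 31 genes of RNA polymerase II pausing and elongation 14 fell (45.2%, near the 39.3% of all genes) and 6 rose (19.4%), or 13 and 2 as deposited (41.9% and 6.45%, beside 34.8% and 20.8% of all genes). The elongation scaffold gene Aff4 fell by 1.01, and genes of the complex that holds the elongation kinase inactive, Hexim1, Hexim2 and Mepce, fell by 0.62, 0.92 and 0.83. The kinase gene Cdk9 rose by 0.29, which was 0.22 as deposited (limma adjusted p 0.068). Of 13 KLF factors outside the pluripotency list 9 fell (69.2%) and 1 rose (7.69%). Klf13 fell by 1.47 and Klf8 by 1.21, while Klf14, with 8 to 10 reads per library at 2 h and 26 to 34 at 4 h, rose by 1.58 ± 0.24, a call that was lost under quantile normalization and with values below 0 set to 0. The Klf14 reads at both times lay below the 44.2 to 56.7 that stand for a log2 value of 0. Klf14 could therefore enter the comparison only through other groups in which it was higher.

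**Figure D3:**
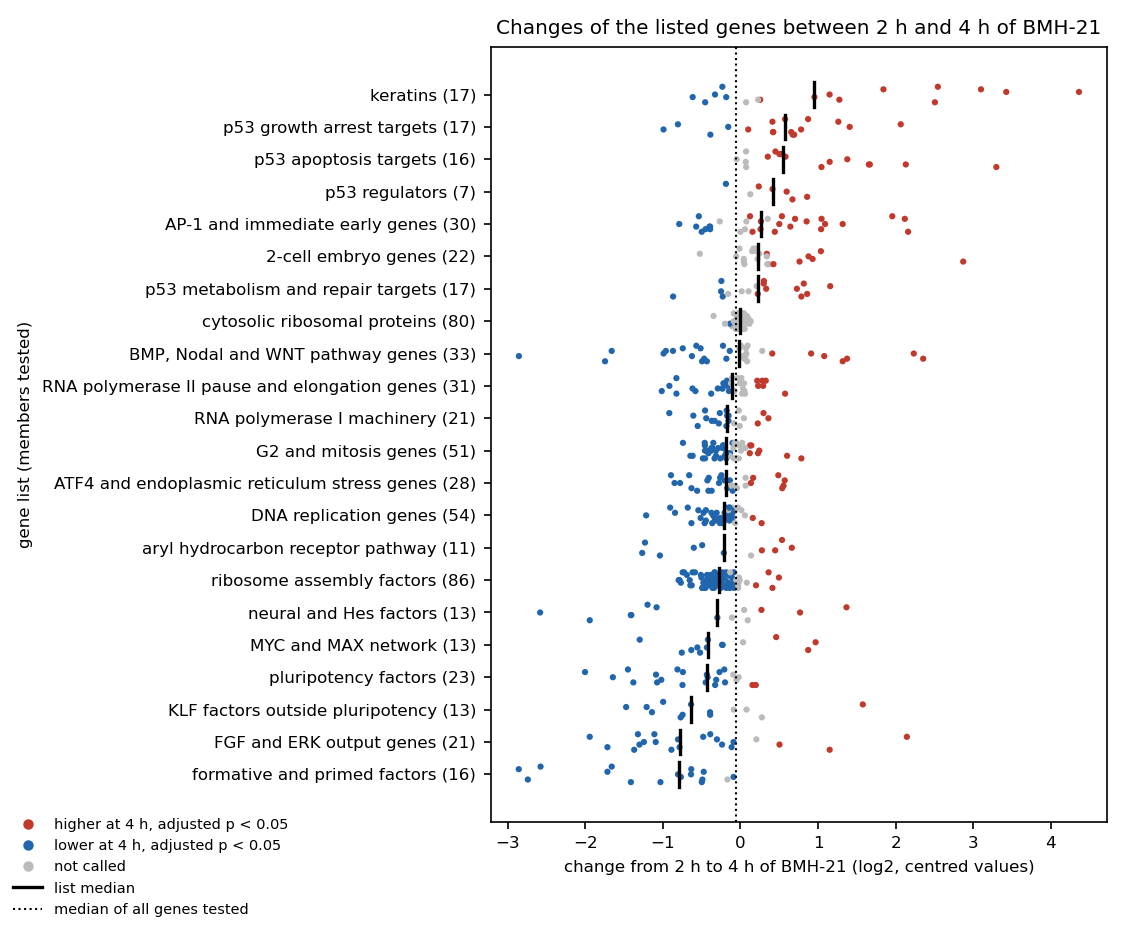
Change of each member of the 22 gene lists from 2 h to 4 h of BMH-21 (log2, centred values), coloured where the limma adjusted p is under 0.05. Short bars are list medians and the dotted line is the median of all genes tested (-0.06). The keratin and p53 lists lie to the right of it and the formative, FGF and pluripotency lists to the left.

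CX-5461 over the same interval and at the same dose gave a matched comparison that shares no library with the one above, and 1 pair of compounds was compared. Between 2 h and 4 h of CX-5461, 9819 genes changed (67%), 3919 higher (26.7%) and 5900 lower (40.2%). At least 2-fold, 1258 were higher (8.58%) and 191 lower (1.3%). Across the 14666 genes, which are not independent, the changes with the inhibitors had a Pearson correlation of 0.92 and the same sign in 84.4%. The 1449 genes that rose at least 2-fold with BMH-21 had a median change of 1.66 with it and 1.46 with CX-5461. For the 365 that fell at least 2-fold these were -1.25 and -0.88, and since the BMH-21 values chose the genes, these medians are a description with no test.

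The change itself differed between the inhibitors for 2460 genes (16.8%) by a limma test of the difference, higher with BMH-21 for 1328 (9.05%) and lower for 1132 (7.72%). As deposited the count was 488 (3.33%), 162 higher (1.1%) and 326 lower (2.22%). The split therefore turned with the scaling, and it was 1883 higher and 945 lower when centred on the median of all genes and 1007 and 1346 with median-ratio size factors. Differences of at least 2-fold were few, 125 in all (0.852%), 47 higher with BMH-21 (0.32%) and 78 lower (0.532%), and 113 as deposited (0.77%). Foxd3 had levels of 0.09 at 2 h and -0.27 at 4 h of CX-5461, a change of -0.36 against -2.86 with BMH-21. The difference was -2.50 ± 0.13 (limma adjusted p 6.3e-12). Zic5 and Zic2 differed by -2.21 ± 0.11 and -1.93 ± 0.10, Fgf5 by -1.52 ± 0.29 and Fgf15 by -1.51 ± 0.17. The Fgf5 call was lost with values below 0 set to 0, where the difference was -0.019 (limma adjusted p 0.959). Of the formative and primed factors 8 of 16 had a lower change with BMH-21 and 0 a higher one by limma (9 and 1 at an unadjusted p under 0.05), beside 7.72% and 9.05% of all genes. As deposited these were 8 and 0 (8 and 0 also at an unadjusted p under 0.05), beside 2.22% and 1.1%.

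Several p53 targets rose further with BMH-21. Mdm2 rose by 0.20 with CX-5461 and the difference was 0.66 ± 0.05 (limma adjusted p 2.1e-09). Fas rose by 2.15 with CX-5461, and the difference was 1.15 ± 0.27 (limma adjusted p 0.0040). Cdkn1a fell by 0.47 with CX-5461, so that its difference was 0.57 ± 0.06 although its own change with BMH-21 was 0.10. Of the 17 growth arrest targets the change was higher with BMH-21 for 10 and lower for 4, and of the 16 apoptosis targets for 9 and 0 (10 and 0 at an unadjusted p under 0.05), beside 9.05% and 7.72% of all genes. As deposited these counts fell to 4 and 4 for growth arrest and to 2 and 0 for apoptosis (4 and 0 at an unadjusted p under 0.05), beside 1.1% and 2.22% of all genes. A higher change was not always a higher level at 4 h. Mean levels with BMH-21 and CX-5461 were 0.49 and 0.80 at 2 h and 2.55 and 2.60 at 4 h for Ptprv. For Apaf1 they were 1.21 and 1.58 at 2 h and 3.340 and 3.465 at 4 h. Mdm2 (5.79 and 5.21) and Fas (-0.46 and -1.25) were higher with BMH-21 at 4 h. For the ribosomal protein genes the limma test called 0 of 80 in either direction (5 higher and 0 lower at an unadjusted p under 0.05), and the FGF and ERK genes were lower with BMH-21 for 9 of 21 and higher for 3, or for 8 and 0 as deposited (9 and 1 at an unadjusted p under 0.05). Cyp1a1 had mean levels of -4.17 at 2 h and -4.25 at 4 h of CX-5461, so its difference of -1.15 ± 0.22 compares a fall from a high level with values that were low at both times. Among the largest rises, Rgs14 and Krt5 rose further with BMH-21 by 1.36 ± 0.10 and 1.10 ± 0.24. The Rgs14 mean was lower with BMH-21 than with CX-5461 at 2 h (-2.74 and -1.61), and the means were closer at 4 h (1.86 and 1.62). The Krt5 means were close at 2 h (-3.46 and -3.52) and apart at 4 h (0.90 and -0.25). For Slco2b1 the difference of 0.46 ± 0.27 and for 5330417C22Rik that of 0.11 ± 0.22 did not pass the test (limma adjusted p 0.25 and 0.78).

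**Figure D4:**
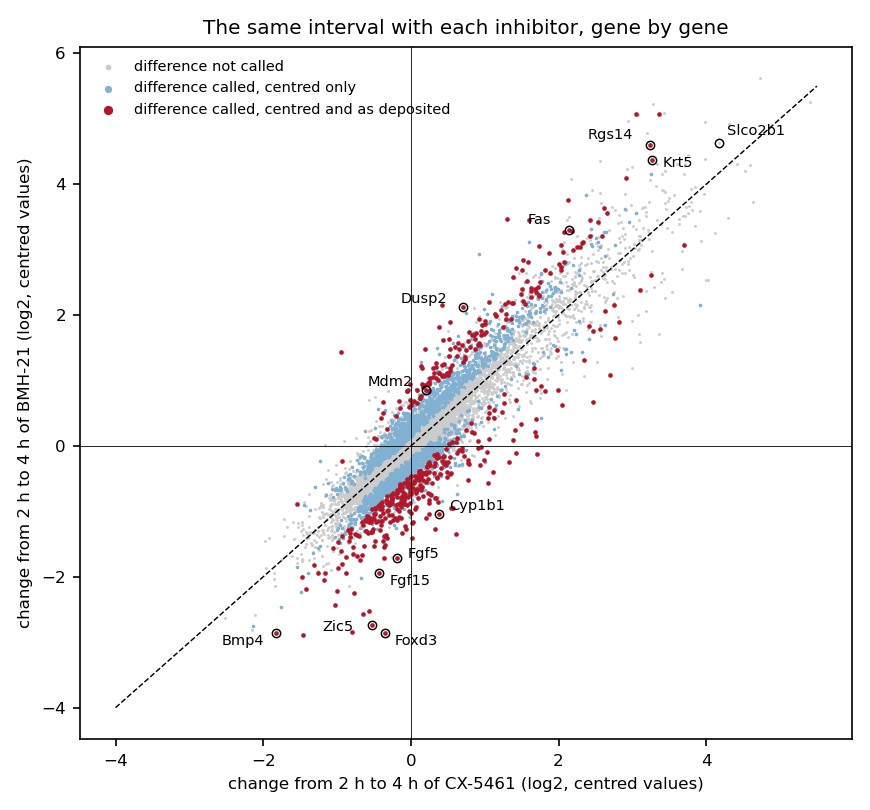
Change of each of the 14666 genes from 2 h to 4 h with CX-5461 (horizontal) and with BMH-21 (vertical), both in log2 of centred values. The dashed line marks equal changes, and colours mark the 2460 genes whose changes differed after centring and those that also differed as deposited. Foxd3, Zic5, Fgf5 and Fgf15 lie below the line and Rgs14, Fas and Dusp2 above it.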

How the data were processed

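The authors deposited 1 table of log2 values for 20900 gene symbols in 21 libraries, and 0 columns were unmapped. The submitters' processing notes name Trim Galore 0.5.0, TopHat2 2.1.1, R 4.0.5, DESeq2 1.30.1, edgeR 3.32.1, limma 3.46.0 and mm10 without their roles. The counter, annotation and filters are not given in the sources used here. Every deposited log2 value matched the logarithm of a whole number of reads plus 0.5 to within 1.7e-08 reads, over a size set per library, so reads could be recovered. A log2 value of 0 was 44.2 to 56.7 reads in the 6 libraries. PCR duplicates cannot be told from molecules.

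Each library was centred on its median over the 14666 genes with a log2 value above 0 in at least 3 libraries. limma 3.58.1 in R 4.3.3 fitted 1 mean for each of 7 groups over all 21 libraries, with a mean-variance trend, two-sided tests and Benjamini-Hochberg adjustment over all tested genes at 0.05. The contrasts were BMH-21 4 h minus 2 h, the same for CX-5461, and their difference. The same fit was made on the values as deposited. The fit was also run on simulated data in which few genes changed, as many up as down. That setting differs from these data, where most genes were called, so it cannot judge the centring. The members of the 22 lists, the 5 marker lists and the naming rule were chosen with earlier results of these data known, so no list was tested. Named genes were the 10 largest rises and 10 largest falls called in both scalings with no overlap and a mean deposited log2 of at least 0, the 3 largest called changes of each list, and 15 fixed genes, 85 in all. Other list members named as examples were chosen after their values were seen. Features came from GENCODE M21 and start regions from RefSeq, both GRCm38. Alternatives changed scaling, filter, offset, variance model, replicate block and each left-out library, and a GC correction was added after seeing the data.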

Additional observations from a re-analysis of the deposited data

Results flagged for a closer look

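The change from 2 h to 4 h differed between BMH-21 and CX-5461, by a limma test of the difference between their changes, for 2460 of 14666 genes, and the 30 named genes that passed it both centred and as deposited are given here as BMH-21 change minus CX-5461 change (log2, 3 libraries per group). The differences were negative for Foxd3 (-2.50), Zic5 (-2.21), Zic2 (-1.93) and its neighbour 2610035F20Rik (-1.96), Mir124a-1hg (-2.05), Fgf5 (-1.52), Fgf15 (-1.51) and Bmp4 (-1.03). The Fgf5 call was lost with values below 0 set to 0, at -0.019 (limma adjusted p 0.959). Differences were also negative for the pluripotency genes Prdm14 (-0.52), Tet2 (-0.61), Sox2 (-0.56) and Nanog (-0.47). The calls for Prdm14 and Tet2 were each lost without 1 CX-5461 library, at -0.43 without replicate 1 of the 2 h group for Prdm14, and at -0.55 without replicate 3 of the 2 h group or replicate 2 of the 4 h group for Tet2. Sox2 fell by 0.45 with BMH-21 and rose by 0.11 with CX-5461.

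The differences were positive for the p53 targets Mdm2 (0.66), Fas (1.15) and Cdkn1a (0.57), for the keratins Krt5 (1.10) and Krt15 (0.90), and for Rgs14 (1.36), Apol8 (1.18), Dusp2 (1.41) and Zfp750 (0.73). Rgs14 and Apol8 had 2 h means of -2.74 and -3.46 with BMH-21, against -1.61 and -2.38 with CX-5461. Their 4 h means were closer, 1.86 and 0.63 with BMH-21 against 1.62 and 0.54 with CX-5461. The Krt15 call did not hold in 11 of 12 fits on 1 library fewer, among them that without replicate 1 of BMH-21 at 2 h (0.70). Genes of the aryl hydrocarbon receptor response had negative values, Cyp1a1 (-1.15) and Cyp1b1 (-1.42), from 2 h levels that differed between the inhibitors (means of 3.00 and 0.99, against -4.17 and -3.93 with CX-5461). The remaining named genes all had negative values: Mnt (-0.77), E2f2 (-0.57), Xbp1 (-0.84), Ppp1r15a (-0.72), Hexim2 (-0.53), Mepce (-0.57) and Klf13 (-0.48).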

How the results depend on the processing

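Of the 85 named genes, 82 were called and 77 kept their verdict under every alternative. The count of changed genes was 8147 as deposited and 11413 centred on the median of all genes. That of genes at least 2-fold lower was 365, and it was 636 centred on the median of all genes, 657 under quantile normalization and 562 without the filter on low values. The count of genes differing between the inhibitors, 2460, was 488 as deposited, 162 higher and 326 lower with BMH-21. The direction turned for Fgf5 with values below 0 set to 0 (0.052), for Cdkn1a centred on the median of all genes (-0.070), and for the uncalled Zscan4d under that centring (-0.0030) and quantile normalization (-0.012). Leaving out 1 library gave 9411 to 9567 changed genes, 1805 to 1825 at least 2-fold, and 1956 to 2326 differing between inhibitors. Replicate numbers did not pair the samples (correlations of same-numbered deviations -0.13, 0.002 and -0.10). With the replicate number as a block 9895 genes changed and 2284 differed between inhibitors. The GC correction gave 9676 changed genes, and 8904 of the 9653 original calls it could test remained. Genes with deposited values below 0, under 44.2 to 56.7 reads, are the least precise.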

Other observations

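Genes that share a symbol stem were counted for families of at least 8 tested members, a grouping made after the values were seen and given with no test. Only members that passed the filter on level were counted. Members low at 2 h could pass it only through groups in which they were higher, so the shares are fixed in part by the filter. Of all genes tested 29% were higher and 39.3% lower, and 9.88% were at least 2-fold higher. Of 14 Wnt genes, which encode secreted signals, 12 were higher at 4 h of BMH-21 than at 2 h, 10 of them at least 2-fold, and 1 was lower, with a median change of 2.00. Of 11 Scn genes, which encode sodium channel subunits, 7 were at least 2-fold higher and 2 were lower, and of 33 Col genes, the collagens, 14 were at least 2-fold higher and 1 was lower. All 10 Cnot genes tested, subunits of the deadenylase complex, were lower, with a median of -0.22, as were 10 of 11 Srsf genes of splicing, with the remaining 1 at least 2-fold higher, and 13 of 17 Snora genes of small nucleolar RNAs, whose median was -0.61. Stems of other RNA-processing genes varied in the share that was lower. Among them 8 of 10 Sf genes (80%), 8 of 9 Utp genes (88.89%) and 20 of 30 Snord genes (66.67%) were lower. Shares nearer to all genes were those of Lsm (6 of 13, 46.15%), Rbm (16 of 35, 45.71%) and Cpsf (4 of 8, 50%). Among 347 Zfp genes, mostly zinc-finger factors, 182 were lower (52.45%) and 65 higher. The histone genes of the Hist stem, 36 tested, had 15 lower by limma (41.67%, near the share of all genes) and 0 higher (against 29% of all genes). Their median change was -0.26, beside -0.06 for all genes tested. Most histone transcripts lack the poly(A) tail by which the libraries were selected.

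Base composition and place in the genome varied with the change. With the genes in 5 bins of equal size by the GC content of the longest GENCODE transcript, the share at least 2-fold higher was 3.65% in the lowest bin (29.6% to 44.2% GC) and 13.99% in the highest (55.8% to 72.8%), and the median change was -0.17 and 0.02. The same medians with CX-5461 were -0.16 and -0.02. Chromosomes with few tested genes were left out of the count by chromosome. Of the others, the X chromosome had the lowest share at least 2-fold higher, 20 of 496 tested genes (4.03%). Chromosome 15, which holds Krt5 and Apol8, had the highest, 73 of 557 (13.1%). In 5 bins by mean level, the share at least 2-fold higher was 25.3% in the lowest and 1.53% in the highest. The shares at least 2-fold lower were 5.11% and 0.75%. The mean level was taken over groups that include BMH-21 at 4 h and 8 h. Genes low at 2 h could enter the comparison only through groups in which they were higher, so the shares by level are fixed in part by the filter. The shares by symbol stem, GC content and chromosome were not adjusted for level.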
